A study of Mus musculus with 46 samples.

Results

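The cytosolic ribosomal protein genes are the genes whose protein products build the large (Rpl) and small (Rps) subunits of the ribosome in the cytoplasm. They were taken by symbol: protein-coding genes named Rpl or Rps with a number, together with Rplp0 to Rplp2 and Rpsa, without the kinases that carry the Rps6k symbol. A mean level of at least 10 CPM (counts scaled to a common library total) over all 46 libraries was also asked for. That gave 80 of the 24671 genes in the table, 48 of the large and 32 of the small subunit, from 82 that matched by symbol. The 2 left out by level were Rpl39l at 9.90 and Rpl3l at 0.0206 CPM, and the lowest taken were Rpl5 at 22.5, Rpl12 at 24.03 and Rpl22l1 at 30.5 CPM. All 80 passed the filter on low counts, which left 13838 genes for testing.

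Polyadenylated RNA was sequenced from bone marrow-derived macrophages of mice, which are macrophages grown from marrow in culture. There were 6 Vehicle libraries and 5 for every one of 8 treatments. The treatments were 27HC (27-hydroxycholesterol, an oxysterol ligand of the liver X receptors, LXR, and of estrogen receptors), GW3965 (an LXR agonist made by synthesis), GSK2033 (which blocks LXR), E2 (estradiol), ICI (the estrogen receptor antagonist fulvestrant), ICI plus 27HC, GSK2033 plus 27HC, and GW3965 plus a second compound. For that last group the titles and the treatment labels disagree on whether the second compound was 27HC or ICI, so it is not named here. The question posed by the design is how different LXR and ER ligands act on these cells. The strain, sex and age of the mice, the doses and the lengths of exposure are missing from the labels, nor do they say whether replicate libraries stem from different mice or dishes, so p-values cover only the spread among these libraries, which may be technical.

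As background, each ribosome carries a single copy of nearly every ribosomal protein, around RNA transcribed by RNA polymerase I and III, and cells make the proteins in near-equal numbers. Most of these mRNAs begin with a terminal oligopyrimidine (TOP) tract, a run of C and U directly after the cap. Through it the kinase complex mTORC1 and the RNA-binding protein Larp1 set how much of each mRNA is translated and how long it lasts. The genes are transcribed at high and steady rates from promoters that mostly lack a TATA box and often hold sites for ETS family factors. The oncogene product Myc raises their output in growing cells. mRNA levels were measured here, not translation or ribosome number.

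The libraries held 19354093 to 30921038 estimated counts, of which the 80 genes took 2.85% ± 0.0462 (SD, n = 6) with Vehicle and 3.57% ± 0.142 (SD, n = 5) with GW3965. All 8 macrophage markers (among them Adgre1, Csf1r and Cd68) were present, at a summed 20793 to 22717 CPM in the Vehicle libraries. All 6 stromal cell markers were present too, summing to 4255 to 5030.1 CPM with Vehicle. Markers of lymphocytes, erythroid cells, dendritic cells and neutrophils each summed to at most 3.05 CPM in any library. In bulk RNA, fewer cells of a type and less RNA per cell cannot be told apart.

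In Vehicle-treated macrophages the genes were abundant and steady. Over the 6 Vehicle libraries their coefficient of variation ran from 1.06% (Rps27a, made as a fusion with ubiquitin) to 9.59% (Rpl12, of the stalk base), with a median of 3.26%. The highest mean levels over all 46 libraries were 1412 CPM for Rplp0, the stalk base protein, 1409.6 for Rps2 and 1135 for Rpsa, both of the small subunit. Per kilobase of the principal transcript, known for 74 of the 80, the Vehicle level of large subunit genes had a median of 369.8 CPM per kb (range 9.92 to 1479). Small subunit genes had a median of 491 CPM per kb (range 56.1 to 1207). The low end was Rps15a, whose annotated principal transcript of 5130 nt was the longest of the members, so its value depends on that length. At the top were the stalk proteins Rplp1 at 1479 and Rplp2 at 1214 CPM per kb, which each ribosome carries in more than a single copy. At the bottom stood Rpl5, which binds the smallest ribosomal RNA, at 9.92 and Rpl12 at 14.9.

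Levels of single members were uncertain where the counts were shared with pseudogenes. Ribosomal protein mRNAs have left many processed copies in the genome, and 1161 annotated pseudogenes in the table matched the transcripts of 76 members (at least 85% identity over at least 50% of the copy). Together they held 4696 CPM, against 31439.8 CPM on the members. For 25 members over 10% of the gene's counts with its copies lay on copies, and for 9 over 50%. The share was 96.02% for Rpl5, 95.3% for Rpl12, 74.5% for Rpl27, 59.4% for Rps6 and 50.1% for Rpl13. With the copies' counts added to their genes, Rpl5 stood at 245 and Rpl12 at 349 CPM per kb, and the SD of log2 CPM per kb among large subunit genes fell from 1.39 to 0.832. Levels and fold changes are given as deposited. Values after adding the copies stand beside main results of Rpl5, Rpl12, Rpl13, Rpl27, Rpl27a, Rpl28, Rpl31 and Rps6 only. Other named members are given without such values, among them Rpl10a (48.7% on copies), Rps7 (47.2%), Rpl11 (43.2%), Rps27a (41.1%) and Rpl36a (37.0%).

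Across the 9 groups, the summed level of the 80 genes was highest in the groups that received GW3965 or 27HC. It was 28010.4 ± 987 CPM (SD, n = 5) with GSK2033, 28566 ± 516 (SD, n = 6) with Vehicle, 29230.5 ± 1459 (SD, n = 5) with ICI and 29268 ± 1230.3 (SD, n = 5) with E2, and the libraries of these 4 groups overlapped. GSK2033 plus 27HC gave 30187 ± 260.1 CPM (SD, n = 5), above every Vehicle library and overlapping E2. The groups ICI plus 27HC at 32576 ± 1431 (SD, n = 5) and 27HC at 32919 ± 1403 (SD, n = 5) lay higher. The highest were GW3965 at 36428 ± 1528 (SD, n = 5) and GW3965 plus the second compound at 36527 ± 1649 (SD, n = 5). Neighbours in this order overlapped, except that every library with ICI plus 27HC (lowest 31211 CPM) was above every library with GSK2033 plus 27HC (highest 30585 CPM). Against Vehicle, the sum was 27.5% higher with GW3965, 27.9% with GW3965 plus the second compound, 15.2% with 27HC, 14.04% with ICI plus 27HC and 5.67% with GSK2033 plus 27HC. These sums are descriptions and were not tested.

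**Figure D1:**
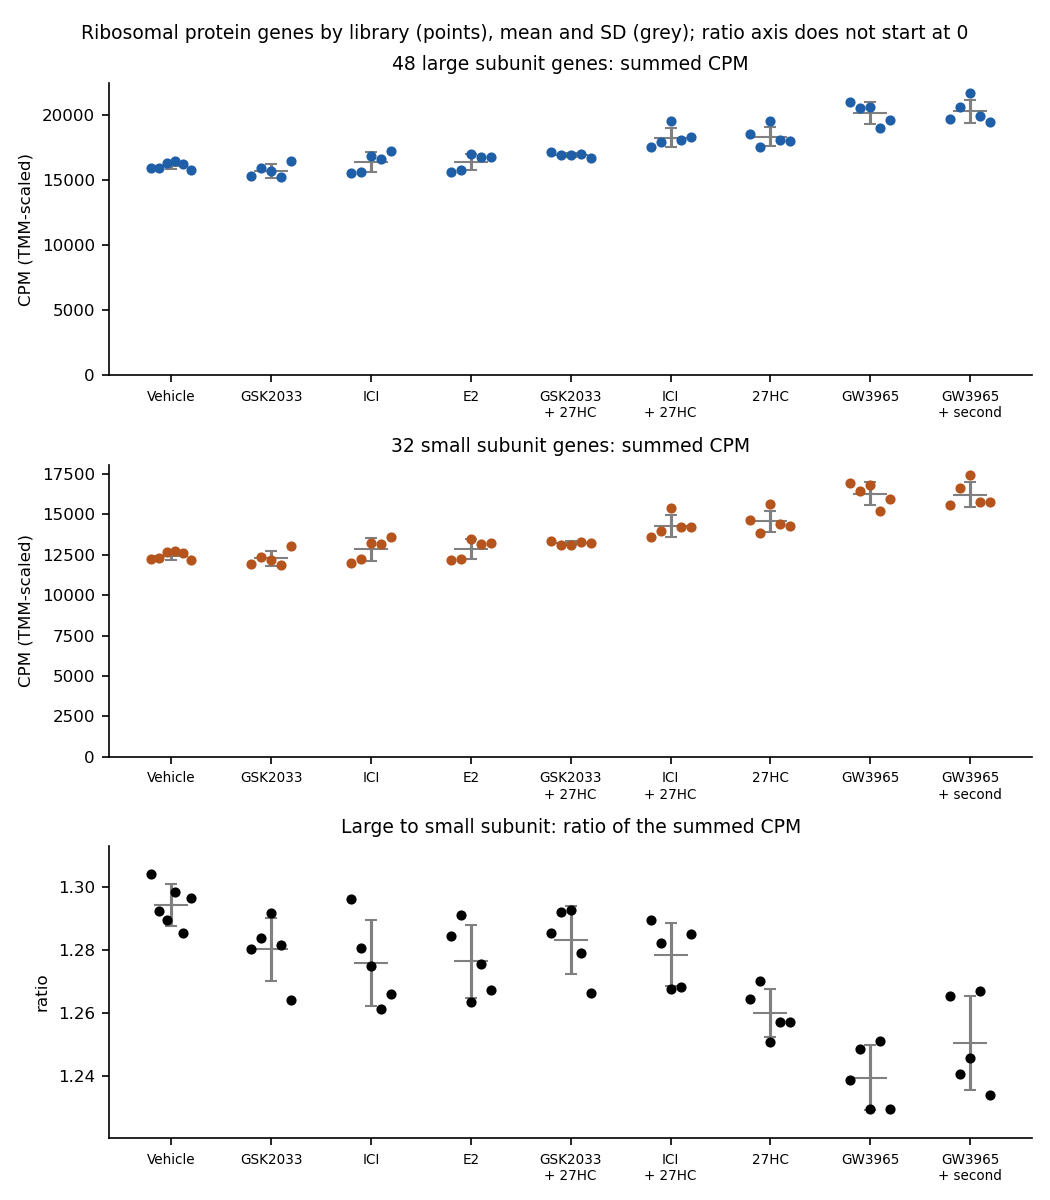
Summed CPM of the 48 large (top) and 32 small subunit genes (middle) and the ratio of both sums (bottom, an axis that does not start at 0) in each of the 46 libraries, by treatment, with the group mean and SD in grey. The large subunit sum goes from 16115 CPM on average with Vehicle to 20161 with GW3965, the small subunit sum from 12451 to 16267, and the ratio from 1.29 to 1.24.

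With GW3965, 77 of the 80 genes were higher than with Vehicle and 1 was lower at an adjusted p under 0.05 (edgeR's quasi-likelihood test, Benjamini-Hochberg adjustment over all genes tested). Among all 13838 genes tested, 23.1% were called higher and 21.1% lower in that comparison. The median log2 fold change was 0.35 over the members and 0.0044 over all genes. For 76 members every GW3965 library lay above every Vehicle library, and for 0 below, as they did for 15.2% and 14.4% of all genes. The rises were small and alike: the quartiles of the members lay between log2 values of 0.29 and 0.43.

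The small subunit protein Rpsa, also known as the laminin receptor, moved the most firmly. Its level ran from 930.3 to 994 CPM (median 955) in the Vehicle libraries and was 1449, 1416, 1422, 1352 and 1380.2 CPM in the 5 GW3965 libraries, which all lay above. The log2 fold change was 0.55 ± 0.030 (SE, edgeR adjusted p = 2.41e-20). Rpl13, of the large subunit, ran from 223 to 280.03 CPM (median 247) with Vehicle and was 405, 362, 386, 338 and 354 CPM with GW3965, again without overlap. Its log2 fold change was 0.56 ± 0.061 (SE, edgeR adjusted p = 1.71e-10), and 0.44 (adjusted p = 2.8e-14) with pseudogene copies added. Of the other leading genes, the log2 fold change was 0.55 ± 0.085 (SE) for Rpl10a, 0.54 ± 0.10 (SE) for Rpl12 (0.50 with copies added), 0.53 ± 0.055 (SE) for Rpl36a, 0.49 ± 0.051 (SE) for Rps7 and 0.49 ± 0.048 (SE) for Rps19, the gene most often mutated in Diamond-Blackfan anemia. Their edgeR adjusted p-values ran from 8.88e-12 to 1.47e-05.

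Other members with named roles in the ribosome rose as well. Rps6, the substrate of the S6 kinases below mTORC1, ran from 207 to 226 CPM (median 219) with Vehicle and was 328, 249, 327, 278 and 292 CPM with GW3965, a log2 fold change of 0.44 ± 0.060 (SE, edgeR adjusted p = 4.87e-08) that was 0.39 (adjusted p = 1.82e-14) with copies added. Rplp0 rose by 0.32 ± 0.031 (SE, edgeR adjusted p = 2.69e-12) on the log2 scale, Rpl3, which reaches the peptidyl transferase centre, by 0.37 ± 0.027 (SE, edgeR adjusted p = 3.19e-16), and Rpl39, which lines the exit tunnel, by 0.41 ± 0.041 (SE, edgeR adjusted p = 1.41e-11). The members not called higher were Rpl27 at 0.18 ± 0.079 (SE, edgeR adjusted p = 0.0586), Rpl27a at 0.14 ± 0.061 (SE, edgeR adjusted p = 0.0603) and Rpl7l1, which fell. With copies added to their genes, 79 of the 80 were called higher and 1 lower, with Rpl27 at 0.21 (adjusted p = 0.000384) and Rpl27a at 0.23 (adjusted p = 3.49e-05).

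Members at other sites of the ribosome were called higher too. In the stalk that recruits translation factors, Rplp1 rose by 0.46 ± 0.046 (SE, edgeR adjusted p = 1.35e-11) and Rplp2 by 0.31 ± 0.041 (SE, edgeR adjusted p = 2.43e-08) on the log2 scale, beside Rplp0 and Rpl12 above. Rpl5 and Rpl11, which bind the smallest ribosomal RNA and, when free, the p53 regulator Mdm2, were at 0.48 ± 0.079 (SE, edgeR adjusted p = 2.1e-06) and 0.26 ± 0.052 (SE, edgeR adjusted p = 4.4e-05). With its copies added, Rpl5 was at 0.37 (adjusted p = 1.07e-13). Rps27a, which is released from a fusion with ubiquitin, ran from 323 to 332 CPM (median 329) with Vehicle and was 468, 460.1, 471, 399.6 and 442 CPM with GW3965, a log2 fold change of 0.45 ± 0.049 (SE, edgeR adjusted p = 1.25e-10). Rpl10 and Rpl24, which join the large subunit late, were at 0.25 ± 0.048 (SE, edgeR adjusted p = 2.14e-05) and 0.17 ± 0.033 (SE, edgeR adjusted p = 3.21e-05), and the latter was the smallest called rise. Rps3, which also has a known role in DNA repair, was at 0.36 ± 0.033 (SE, edgeR adjusted p = 5.92e-13), and Rps4x, encoded on the X chromosome, at 0.38 ± 0.030 (SE, edgeR adjusted p = 9.05e-15).

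**Figure D2:**
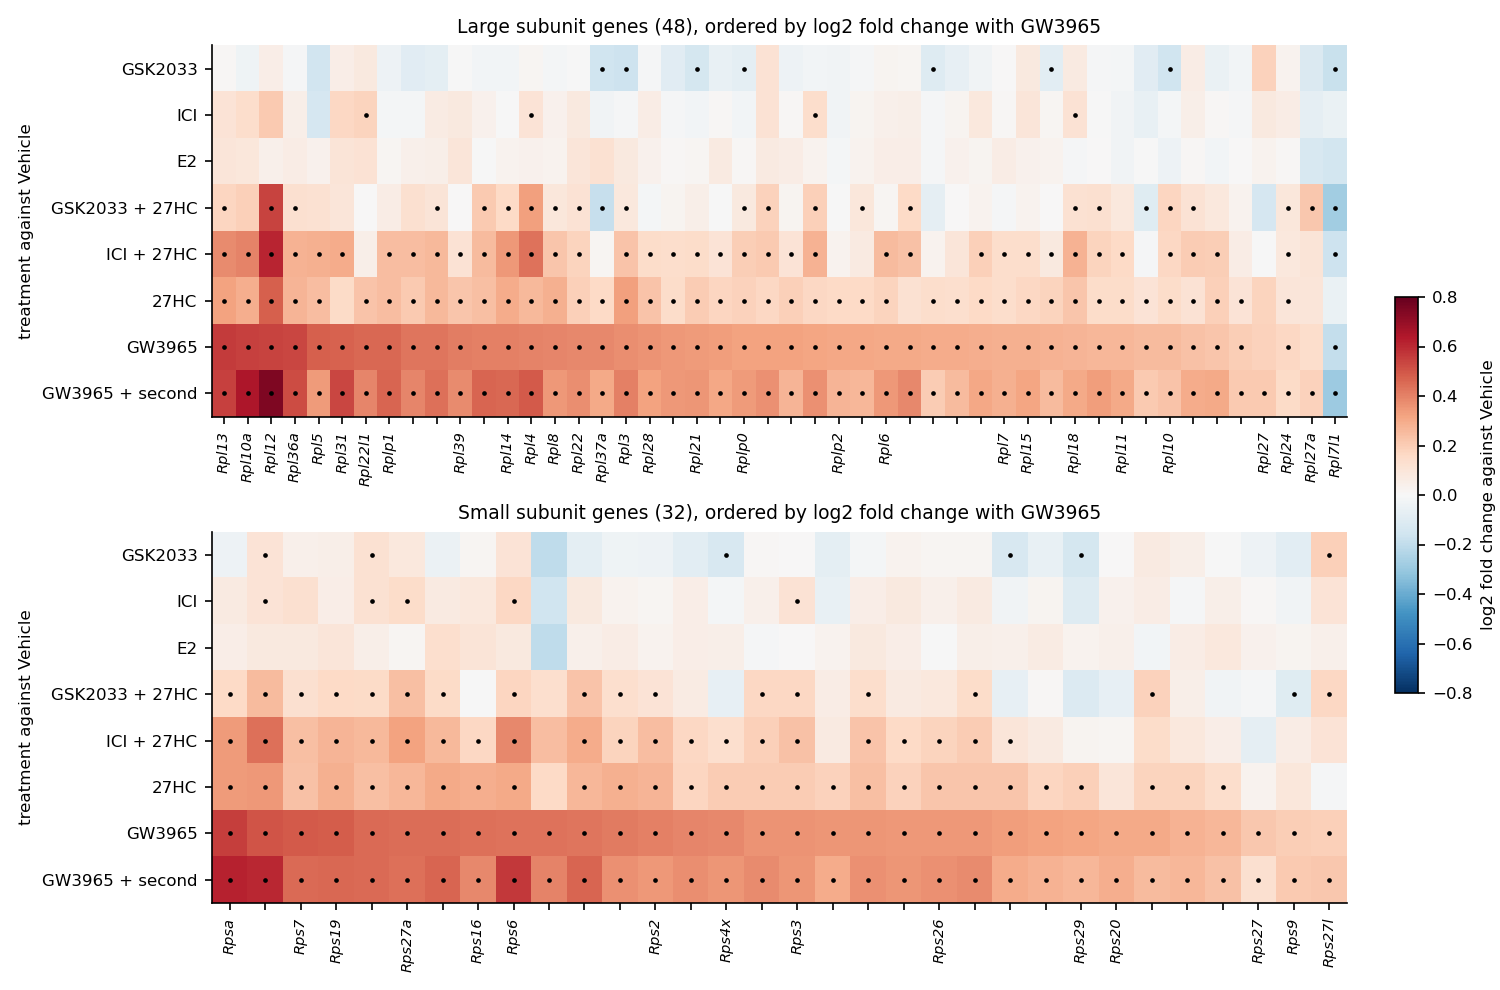
Log2 fold change against Vehicle (color) of each large (top) and small subunit gene (bottom) in the 8 treatments, with genes ordered by their value with GW3965, names under those given in the text, and a dot where the adjusted p was under 0.05. The rows of the 2 groups with GW3965 are red throughout except for Rpl7l1, the row of 27HC is paler, and the rows of GSK2033, ICI and E2 hold few dots.

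The start regions of the genes were described as well, without regard to treatment. Whether any string of letters goes with the response was not tested. RefSeq promoter windows (GRCm38.p6, 250 bases before to 50 after the start) matched 60 of the 80 members by symbol. The letters CGGAAGT, the core of ETS family sites, or their reverse complement ACTTCCG were found in 35% of member windows, in 30.6% of large and 41.7% of small subunit windows, and in 6.59% of 27025 windows in all. The pyrimidine-rich letters CTTTCC or their reverse complement GGAAAG were in 46.7% of member windows and 26.3% of all. TATAAA or TTTATA was in 10% of member windows and 14.2% of all. A match is a string of letters and not a bound site. The stretches below run from 110 bases before to 30 bases after the start, on the gene's strand, with CGGAAGT and CTTTCC of either strand in capitals. They show 3 genes that rose with GW3965 beside genes of paralog pairs that are described below. Rpsa lies at chr9:120127656-120127795 (plus strand), Rps6 at chr4:86857338-86857477 (minus strand), Rpl13 at chr8:123102240-123102379 (plus strand), Rpl22 at chr4:152325616-152325755 (plus strand), Rpl22l1 at chr3:28805398-28805537 (plus strand), Rps27 at chr3:90213619-90213758 (minus strand), Rps27l at chr9:66945976-66946115 (plus strand) and Rpl7l1 at chr17:46782627-46782766 (minus strand).
Rpsa: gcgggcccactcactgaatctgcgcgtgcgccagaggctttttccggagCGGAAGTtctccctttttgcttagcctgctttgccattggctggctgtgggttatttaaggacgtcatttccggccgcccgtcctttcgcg
Rps6: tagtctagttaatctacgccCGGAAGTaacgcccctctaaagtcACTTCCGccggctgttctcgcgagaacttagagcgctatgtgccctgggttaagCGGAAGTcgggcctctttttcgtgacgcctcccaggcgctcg
Rpl13: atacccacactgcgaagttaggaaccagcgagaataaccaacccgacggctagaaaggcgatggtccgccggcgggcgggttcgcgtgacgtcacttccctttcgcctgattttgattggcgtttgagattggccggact
Rpl22: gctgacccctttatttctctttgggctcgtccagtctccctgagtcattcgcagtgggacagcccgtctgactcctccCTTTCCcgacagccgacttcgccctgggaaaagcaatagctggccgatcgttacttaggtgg
Rpl22l1: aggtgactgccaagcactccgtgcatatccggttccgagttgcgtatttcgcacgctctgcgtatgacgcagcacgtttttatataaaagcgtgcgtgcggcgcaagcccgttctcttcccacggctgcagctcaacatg
Rps27: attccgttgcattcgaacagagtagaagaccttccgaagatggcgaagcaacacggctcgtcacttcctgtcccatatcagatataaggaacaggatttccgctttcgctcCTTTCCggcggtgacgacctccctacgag
Rps27l: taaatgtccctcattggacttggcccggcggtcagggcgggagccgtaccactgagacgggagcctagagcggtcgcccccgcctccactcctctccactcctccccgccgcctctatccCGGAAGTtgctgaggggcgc
Rpl7l1: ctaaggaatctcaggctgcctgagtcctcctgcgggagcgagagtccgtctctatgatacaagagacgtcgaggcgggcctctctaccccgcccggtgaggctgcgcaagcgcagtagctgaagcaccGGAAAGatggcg
The stretch of Rps6 holds the ETS letters 3 times, and those of Rpsa and Rps27l hold them once. In Rpl13 and Rpl22l1 neither CGGAAGT nor CTTTCC occurs on either strand within the stretch shown. The stretch of Rpl22l1 does hold TATAAA.

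27HC gave the same direction with smaller rises. Against Vehicle, 70 members were called higher and 0 lower, where 20.3% and 20.0% of all genes were. The median log2 fold change was 0.19 over the members and -0.0022 over all genes. Libraries of both groups did not overlap for 52 higher and 0 lower members (12.4% and 13.0% of all genes). Rpsa was at 1199.7, 1175, 1289.8, 1190.4 and 1215 CPM in the 27HC libraries, all above the Vehicle range, and its log2 fold change was 0.34 ± 0.030 (SE, edgeR adjusted p = 3.96e-13). Rpl3 was at 707, 684, 755, 715 and 706 CPM, against a range from 548 to 582 CPM (median 569) with Vehicle, and rose by 0.33 ± 0.027 (SE, edgeR adjusted p = 2.64e-14) on the log2 scale. On the same scale Rps6 rose by 0.31 ± 0.060 (SE, edgeR adjusted p = 4.75e-05), or 0.29 with copies added, and Rpl14 by 0.30 ± 0.049 (SE, edgeR adjusted p = 2.46e-06). Rpl12 had the highest estimate at 0.48 ± 0.10 (SE, edgeR adjusted p = 0.000123), which was 0.35 (adjusted p = 2.17e-09) with its copies added. The members not called included Rps27 at 0.03 ± 0.039 (SE), Rps27l at -0.01 ± 0.057 (SE) and Rpl7l1 at -0.05 ± 0.051 (SE), with edgeR adjusted p-values of 0.633, 0.9 and 0.475.

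Compared directly, 27HC left 57 of the 80 genes lower than GW3965 and 0 higher, where 12.5% and 12.8% of all genes were. The median difference was -0.15 on the log2 scale. The widest called gaps were Rpl31 at -0.32 ± 0.070 (SE, edgeR adjusted p = 0.000413), or -0.20 (adjusted p = 0.000241) with copies added, Rpl36a at -0.26 ± 0.057 (SE, edgeR adjusted p = 0.000321) and Rps7 at -0.25 ± 0.053 (SE, edgeR adjusted p = 0.000204). The libraries of both groups did not overlap for 0 higher and 13 lower members (9.18% and 8.54% of all genes). Rpsa was among the latter: its highest 27HC library was at 1289.8 CPM and its lowest GW3965 library at 1352 CPM. Rpl3 was not called, as its difference between the ligands was -0.04 ± 0.028 (SE, edgeR adjusted p = 0.293), the 27HC libraries at a mean of 714 CPM and the GW3965 libraries at 735 CPM. The doses of the ligands are not known, so the gap compares these cultures and not equal doses.

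Rps27, Rps27l and Rpl7l1 were among the 10 members not called with 27HC. They are described because they belong to paralog pairs among the members fixed for naming. Rpl22 and Rpl22l1, also such a pair, were called higher with 27HC. Rps27l, a paralog of Rps27 that p53 induces, was at 66.5, 68.3, 71.4, 65.3 and 64.1 CPM with 27HC, overlapping its Vehicle range from 61.4 to 71.1 CPM (median 68.1). It was higher with GSK2033, at 73.2, 80.6, 69.2, 76.2 and 87.3 CPM (log2 fold change 0.19 ± 0.056 SE, edgeR adjusted p = 0.00556), where 11 members fell, and higher with GSK2033 plus 27HC, at 78.7, 76.4, 75.7, 74.9 and 73.4 CPM (log2 fold change 0.16 ± 0.056 SE, edgeR adjusted p = 0.0124). Rps27 itself was at 218, 209, 224, 208 and 206 CPM with 27HC against a Vehicle range from 200 to 214 CPM (median 210.5), and was called higher against Vehicle with GW3965 and with GW3965 plus the second compound: the log2 fold change was 0.21 ± 0.039 (SE, edgeR adjusted p = 1.21e-05) with GW3965 and 0.13 ± 0.039 (SE, edgeR adjusted p = 0.00662) with the combination, where leaving out its replicate 3 ended the call.

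Rpl7l1, a gene named for its likeness to Rpl7, ran the other way. It ran from 122 to 137 CPM (median 133) with Vehicle and was 109.5, 109.7, 102, 110.03 and 108 CPM with GW3965 plus the second compound, all below the Vehicle range, a log2 fold change of -0.29 ± 0.052 (SE, edgeR adjusted p = 7.47e-06). With GW3965 alone it was 113, 134, 117, 105 and 108 CPM, overlapping Vehicle through replicate 2, a log2 fold change of -0.19 ± 0.052 (SE, edgeR adjusted p = 0.00226). It was also lower with GSK2033 (-0.18 ± 0.052 SE, edgeR adjusted p = 0.00484), ICI plus 27HC (-0.17 ± 0.052 SE, edgeR adjusted p = 0.00603) and GSK2033 plus 27HC (-0.28 ± 0.052 SE, edgeR adjusted p = 1.24e-05), and not called with 27HC. Its partner Rpl7 ran from 544 to 608 CPM (median 565) with Vehicle and was 726, 675, 702, 689 and 705 CPM with GW3965, without overlap, a log2 fold change of 0.29 ± 0.036 (SE, edgeR adjusted p = 3.5e-09). The comparisons against Vehicle share the same 6 Vehicle libraries.

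Rpl22 and Rpl22l1 can take each other's place in the large subunit, and Rpl22 is known to hold down Rpl22l1. Rpl22 ran from 160.2 to 179.7 CPM (median 174) with Vehicle, 248, 232, 228, 206 and 213 with GW3965 and 202, 195, 207, 191 and 189 CPM with 27HC. Every library of both treatments lay above every Vehicle library, at log2 fold changes of 0.39 ± 0.041 (SE, edgeR adjusted p = 7.05e-11) and 0.19 ± 0.041 (SE, edgeR adjusted p = 0.000186). Rpl22l1 ran from 25.8 to 29.5 CPM (median 26.9) with Vehicle, 36.4, 38.6, 42.6, 33.9 and 35.3 with GW3965 and 28.5, 29.6, 34.9, 32.4 and 33.3 CPM with 27HC, where replicate 1 lay within the Vehicle range and replicate 2 just above it, and rose by 0.46 ± 0.056 (SE, edgeR adjusted p = 1.58e-09) and 0.23 ± 0.056 (SE, edgeR adjusted p = 0.000856) on the log2 scale. In the combinations their values differed. With ICI plus 27HC, Rpl22 was called higher at 0.18 ± 0.042 (SE, edgeR adjusted p = 0.000326) and Rpl22l1 was at 0.05 ± 0.056 (SE, edgeR adjusted p = 0.514), its libraries at 27.8, 26.5, 31.1, 25.9 and 28.5 CPM. With GSK2033 plus 27HC, Rpl22l1 was at 26.2, 27.6, 26.3, 28.9 and 26.4 CPM, within the Vehicle range, and Rpl22 was 0.11 ± 0.041 (SE, edgeR adjusted p = 0.0198), a call that leaving out Vehicle replicate 1 ended.

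**Figure D3:**
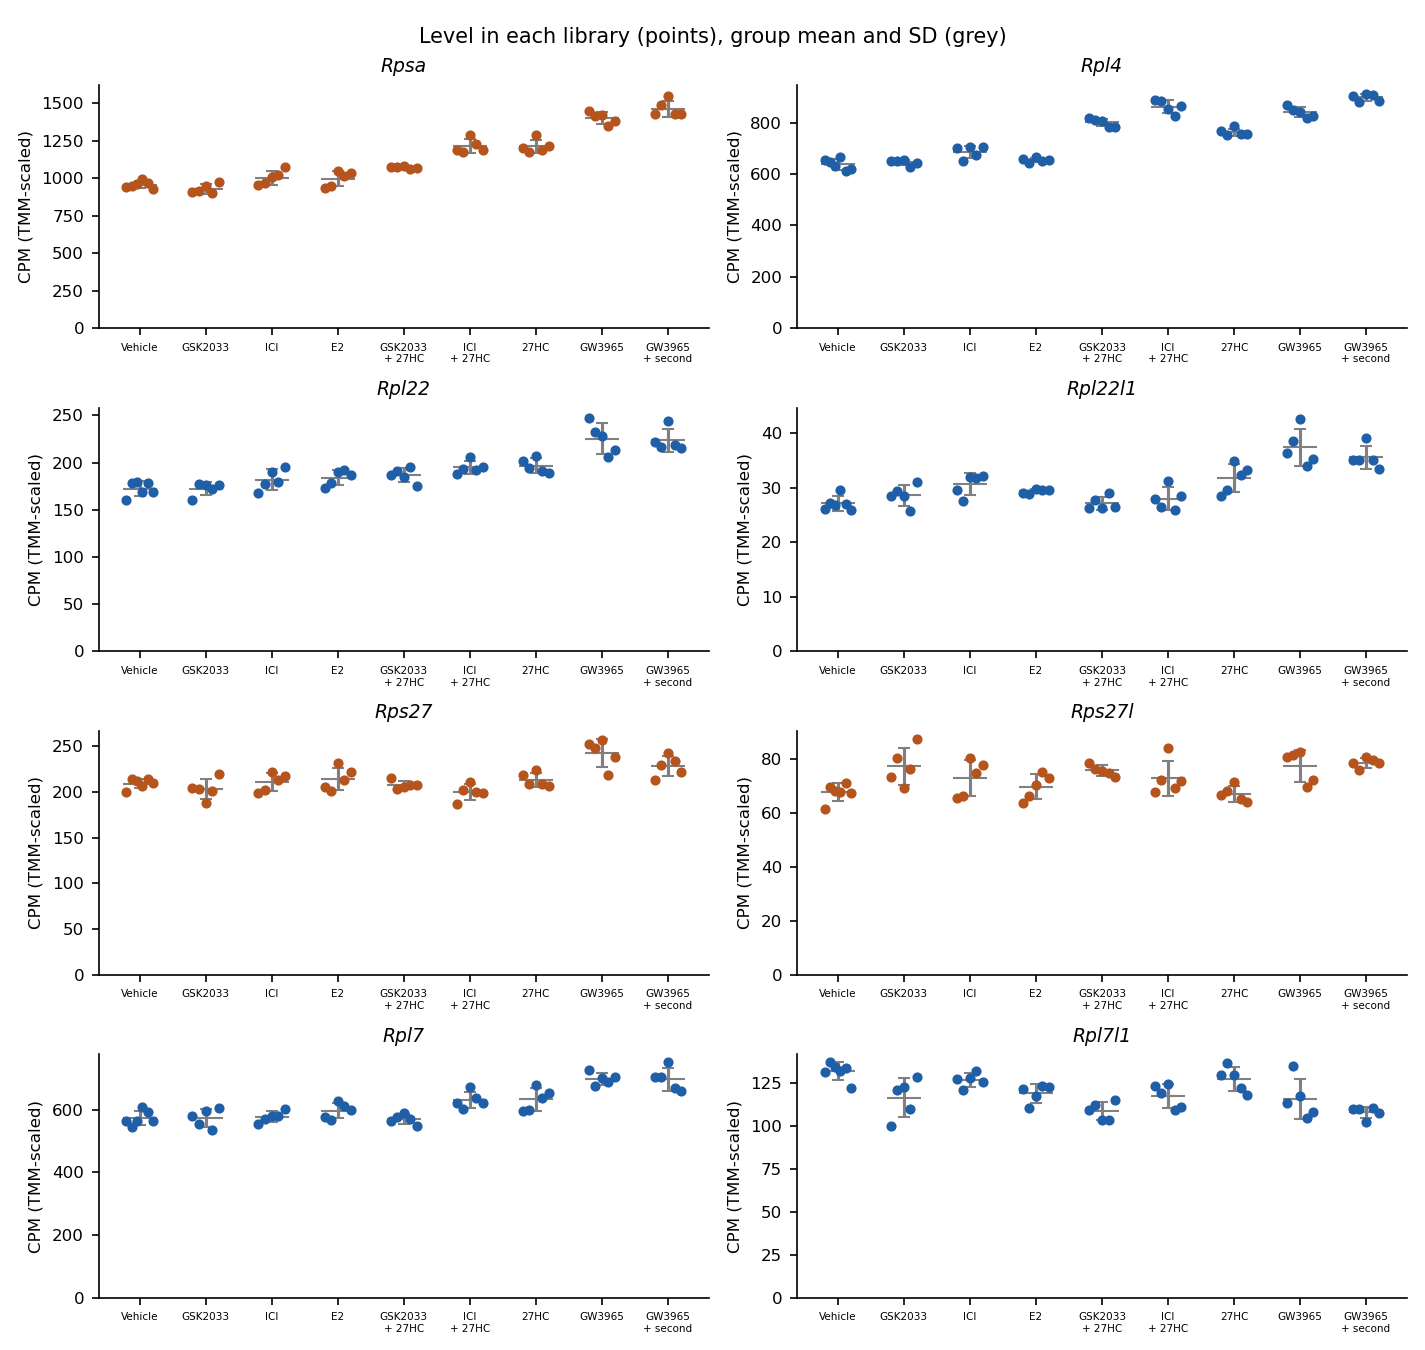
CPM of 8 members in each of the 46 libraries, by treatment, with the group mean and SD in grey. Rpsa and Rpl4 climb from Vehicle to the GW3965 groups, Rpl22l1 is near its Vehicle level in both combinations with 27HC, Rps27 and Rps27l with 27HC lie near Vehicle, and Rpl7l1 is lowest with GW3965 plus the second compound and GSK2033 plus 27HC.

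GSK2033 alone left most members near Vehicle: 3 were called higher and 11 lower, against 18.4% and 17.9% of all genes, shares that the members' own did not exceed, with a member median of -0.02 on the log2 scale. The libraries of both groups did not overlap for 1 higher and 5 lower members (11.7% and 11.2% of all genes). Rpl3 had the smallest adjusted p of those that fell. It was at 508, 499, 516, 499 and 514 CPM with GSK2033, every library below the Vehicle range given above, and its log2 fold change was -0.17 ± 0.027 (SE, edgeR adjusted p = 1.85e-06). Rpl21 fell by 0.14 (edgeR adjusted p = 0.000329) and Rps4x by 0.13 (edgeR adjusted p = 0.000753) on that scale. Rps27l was among those called higher. The count of higher members was 1 without GSK2033 replicate 5 and 5 without GSK2033 replicate 4.

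With GSK2033 and 27HC together, 38 members were higher and 4 lower than with Vehicle, against 24.1% and 26.4% of all genes, and the member median was 0.09. The libraries of both groups did not overlap for 27 higher and 4 lower members (16.2% and 18.9% of all genes). The 4 lower members included Rpl7l1, Rpl37a (-0.18 ± 0.056 SE, edgeR adjusted p = 0.00511) and Rps9 (-0.09 ± 0.040 SE, edgeR adjusted p = 0.0447), and 2 were left without Vehicle replicate 1, 3 or 4 or without GSK2033 plus 27HC replicate 2, 3, 4 or 5. Against 27HC alone, 44 were lower and 2 higher (21.7% and 21.1% of all genes), with a median of -0.13. Against 27HC, no overlap was seen for 1 higher and 35 lower members (15.1% and 15.8% of all genes). Rpsa was at 1074, 1074, 1079.96, 1063 and 1072 CPM, above every Vehicle and below every 27HC library, and its log2 difference from 27HC was -0.18 ± 0.032 (SE, edgeR adjusted p = 6.8e-06). Rpl37a (-0.34 ± 0.058 SE, edgeR adjusted p = 2.89e-06), Rps29 (-0.31 ± 0.051 SE, edgeR adjusted p = 2.37e-06) and Rps16 (-0.30 ± 0.055 SE, edgeR adjusted p = 1.32e-05) were the lowest against 27HC beside Rpl27. The 2 members that were higher than with 27HC alone were Rps27l and Rpl4, which has a long arm in the exit tunnel. Rpl4 was at 769, 754, 786, 756 and 755 CPM with 27HC and 818, 812, 807, 786 and 785 CPM with GSK2033 plus 27HC, which overlap only through 27HC replicate 3, a log2 difference of 0.07 ± 0.023 (SE, edgeR adjusted p = 0.0134).

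Against GSK2033 alone, adding 27HC raised 35 members and lowered 1, where 17.1% and 18.8% of all genes were called, with a member median of 0.10. Libraries of both groups did not overlap for 22 higher and 1 lower members (11.8% and 14.0% of all genes). Rpl4 rose by 0.31 ± 0.023 (SE, edgeR adjusted p = 2.48e-15), Rpl10, which joins the subunit late in its assembly, by 0.33 ± 0.050 (SE, edgeR adjusted p = 7.34e-07) and Rpl3 by 0.25 ± 0.028 (SE, edgeR adjusted p = 3.39e-10) on the log2 scale. The interaction term, which tests whether 27HC acted by another factor in the presence of GSK2033, called 17 members lower and 0 higher (10.3% and 9.34% of all genes). The member median of that term was -0.10. Other genes with principal transcripts up to 800 nt had a median of -0.06 in it, and those over 4000 nt one of 0.05. The part of transcript length in the member values was not tested. The lowest members were Rpl27 at -0.50 ± 0.114 (SE, edgeR adjusted p = 0.00104), Rps16 at -0.31 ± 0.076 (SE, edgeR adjusted p = 0.00182) and Rpl22l1 at -0.30 ± 0.081 (SE, edgeR adjusted p = 0.00469). Rpl27 was at 70.5, 67.9, 66.5, 61.9 and 57.4 CPM with both compounds, 78.4, 80.02, 94.1, 71.8 and 80.5 with GSK2033 and 74.4, 67.3, 99.2, 77.7 and 83.5 with 27HC. With the pseudogene copies added, its interaction was -0.26 (adjusted p = 0.006), and its fall from GSK2033 alone was -0.10 (adjusted p = 0.151), no longer called.

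These counts moved with the scaling. Scaled to the library total instead of by TMM, 54 members were higher and 2 lower with GSK2033 plus 27HC than with Vehicle, 55 were higher and 1 lower than with GSK2033 alone, and the interaction called 8 lower and 3 higher. The interaction count was also 9 lower without a filter on low counts, 10 without 27HC replicate 3, 7 without GSK2033 replicate 5, and 11 without GSK2033 replicate 3, GSK2033 plus 27HC replicate 1 or GSK2033 plus 27HC replicate 2. In the main fit 10.3% of all genes were called lower in this term and 9.34% higher. Counts of 7 to 11 lower among the 80 members lie near the former share. The shares of all genes under these changes are not reported here.

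**Figure D4:**
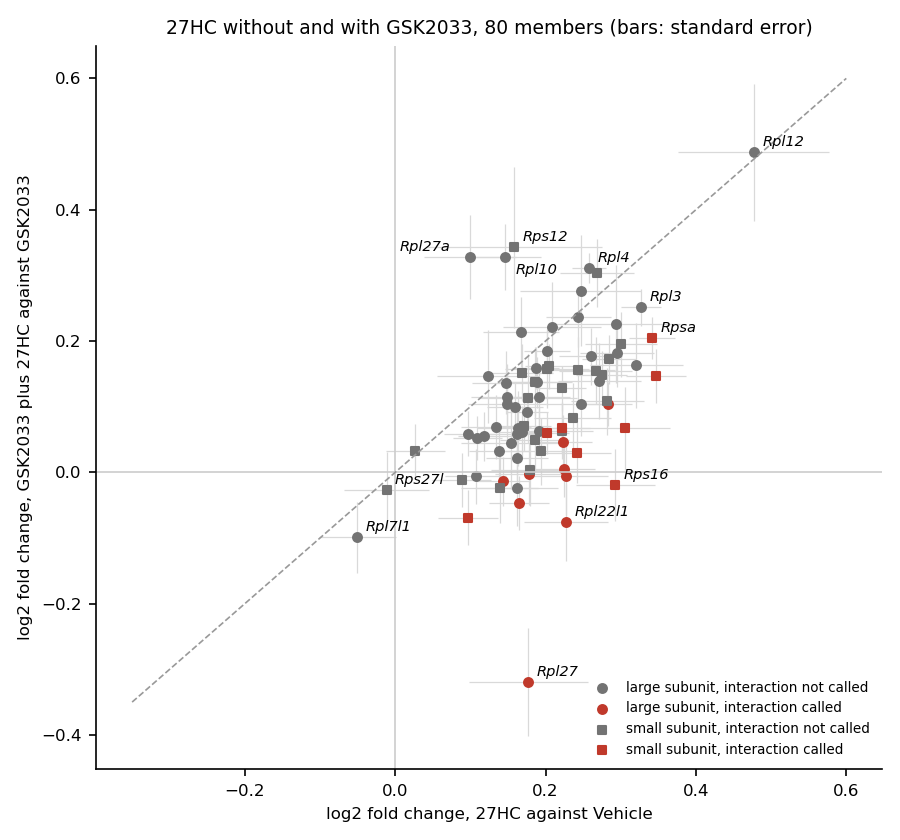
Log2 fold change of the 80 members for 27HC against Vehicle (horizontal) and for GSK2033 plus 27HC against GSK2033 (vertical), 2 comparisons that share no library, with standard errors as bars and the line of equal values dashed. The 17 members in red, whose interaction was called, lie below the line, with Rpl27 the farthest at 0.18 and -0.32, and Rpl12, at 0.48 and 0.49, lies close to it (0.35 and 0.25 with copies added).

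The estrogen receptor ligands gave few or no calls on their own. With E2, 0 members were called higher and 0 lower by edgeR, where 4.70% of all genes were called in either direction. DESeq2 also called 0, and 8 of the 80 had an unadjusted edgeR p under 0.05. No overlap was seen for 0 higher and 0 lower members with E2 (1.65% and 2.16% of all genes). Leaving out E2 replicate 1 gave 1 higher member, Rpl3. Rpsa was at 935, 951, 1047, 1013 and 1034 CPM with E2, overlapping Vehicle (log2 fold change 0.06 ± 0.030 SE, edgeR adjusted p = 0.387). With ICI, 9 were higher and 0 lower (13.9% and 12.5% of all genes), shares of the 80 no higher than those of all genes. With ICI, no overlap was seen for 2 higher and 0 lower members (7.69% and 7.59%). Rpl4 had the smallest adjusted p, at 702, 653, 705, 674 and 706 CPM with ICI against a range from 612 to 668 CPM (median 640.1) with Vehicle, overlapping, and a log2 fold change of 0.11 ± 0.022 (SE, edgeR adjusted p = 0.000192). Rpl22l1 was at 29.5, 27.5, 32.01, 31.8 and 32.2 CPM with ICI (log2 fold change 0.18 ± 0.056 SE, edgeR adjusted p = 0.0146), a call that ended without ICI replicate 5. The number of higher members with ICI was 16 without ICI replicate 1, 5 without Vehicle replicate 6 or ICI replicate 4, and 3 without ICI replicate 3 or 5. It was 5, with 1 lower, when scaled to the library total.

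Adding ICI to 27HC changed few members further. Against Vehicle, 58 members were higher and 1 lower with ICI plus 27HC (26.6% and 26.4% of all genes), with a median of 0.18. Libraries of both groups did not overlap for 45 higher and 0 lower members (18.1% and 18.5% of all genes). Against 27HC directly, 11 were lower and 1 higher (17.4% and 16.8% of all genes), again no more than the share of all genes, with a median of -0.01. Against 27HC, no overlap was seen for 1 higher and 0 lower members (11.1% and 12.2%). Rpsa was at 1189, 1179, 1289.8, 1227 and 1191 CPM, overlapping the 27HC libraries, and differed from it by 0.0011 ± 0.032 (SE, edgeR adjusted p = 0.985) on the log2 scale. Rpl22l1 was lower than with 27HC (-0.18 ± 0.058 SE, edgeR adjusted p = 0.0132), a call that ended without 27HC replicate 3 or ICI plus 27HC replicate 4. So were Rpl3 (-0.10 ± 0.028 SE, edgeR adjusted p = 0.00399) and Rps29 (-0.17 ± 0.051 SE, edgeR adjusted p = 0.0073). Rpl4 was the member that was higher, at 888, 883, 854, 827 and 865 CPM, all above the 27HC libraries, a log2 difference of 0.18 ± 0.023 (SE, edgeR adjusted p = 2.57e-08).

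The interaction of ICI with 27HC called 3 members lower and 0 higher (9.97% and 7.39% of all genes). The member median of this term was -0.07, and between -0.09 and -0.03 under the alternatives run. Other genes with principal transcripts up to 800 nt had a median of -0.05 in it. The members called were Rpl22l1 at -0.36 ± 0.081 (SE, edgeR adjusted p = 0.000911), Rps16 at -0.21 ± 0.076 (SE, edgeR adjusted p = 0.0446) and Rpl39 at -0.19 ± 0.060 (SE, edgeR adjusted p = 0.0208). The call of Rps16 ended under most changes of setting or library, and that of Rpl39 without 27HC replicate 3, ICI replicate 4 or ICI plus 27HC replicate 1. Scaled to the library total, 2 were lower and 1 higher in the interaction, and 9 lower and 3 higher against 27HC. Rpl39 was at 198, 216, 231, 229 and 221 CPM with ICI, 242, 216, 257, 245 and 250.3 with 27HC and 209, 218, 235, 226 and 234 with both, where the libraries with both compounds overlapped those of each alone. The count of lower members against 27HC was 18 without 27HC replicate 2, 17 without ICI plus 27HC replicate 3, 7 without its replicate 2, 5 without its replicate 1 and 2 without 27HC replicate 3, when 4 were higher. That last library held the highest summed level of its group, 35168 CPM against a group median of 32538. The interaction count was 9 without ICI replicate 1, 6 without ICI plus 27HC replicate 3, 5 without ICI replicate 2, and 1 without 27HC replicate 3, ICI replicate 4 or ICI plus 27HC replicate 1.

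GW3965 with its second compound gave a like count. Against Vehicle, 79 members were higher and 1 lower (25.2% and 24.4% of all genes), with a median of 0.35, and without overlap between libraries 76 were higher and 1 lower (16.9% and 16.7% of all genes). Directly against GW3965, 1 member was higher and 0 lower by edgeR, where 7.93% and 9.56% of all genes were, and the median was -0.0042. No overlap was seen for 1 higher and 0 lower (5.43% and 6.92% of all genes). In that comparison 7 of the 80 had an unadjusted p under 0.05, and DESeq2 called 1. The called member was Rpl4, at 906, 881, 913, 908 and 887 CPM with the combination and 869, 851, 844, 818 and 828 CPM with GW3965, all of the first above all of the second, a log2 difference of 0.09 ± 0.023 (SE, edgeR adjusted p = 0.00226). Rpl4 was thus called higher in each of the 3 groups in which a second compound was added to 27HC or GW3965, taken against that ligand alone. Rpl12 was at 0.75 ± 0.099 (SE, edgeR adjusted p = 1.46e-08) against Vehicle and 0.58 (adjusted p = 7.09e-16) with its copies added, and Rps6 at 0.57 ± 0.060 (SE, edgeR adjusted p = 5.46e-11) and 0.42 (adjusted p = 1.04e-15).

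Genes of both subunits were called higher, and the summed level of the small subunit genes was higher by a little more. With GW3965, 45 of 48 large and 32 of 32 small subunit genes were higher (23.1% of all genes), with medians of 0.32 and 0.36. With 27HC the counts were 43 and 27 (20.3% of all genes), with medians of 0.18 and 0.21. With ICI plus 27HC they were 37 and 21 (26.6% of all genes), with medians of 0.18 and 0.18. With 27HC and with ICI plus 27HC, a larger part of the large than of the small subunit genes was called higher. The summed level was higher by 25.1% for large and 30.7% for small subunit genes with GW3965 and by 13.9% and 17% with 27HC. The ratio of the large to the small subunit sum, which no scaling of libraries changes, ran from 1.285 to 1.304 in the Vehicle libraries, from 1.251 to 1.270 with 27HC, from 1.229 to 1.251 with GW3965 and from 1.234 to 1.267 with its combination. None of these 3 ranges overlapped that of Vehicle. The ratio ran from 1.268 to 1.289 with ICI plus 27HC and from 1.266 to 1.293 with GSK2033 plus 27HC, and both overlapped Vehicle, as did GSK2033, E2 and ICI.

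Weighting each gene alike gave a narrower result. The mean log2 CPM of large minus that of small subunit genes ran from -0.375 to -0.355 with Vehicle and from -0.416 to -0.387 with GW3965, without overlap. With 27HC it ran from -0.394 to -0.374, which met the Vehicle range at its edge, and with GW3965 plus the second compound from -0.407 to -0.370, which overlapped it. With pseudogene copies added, the ratio of sums ran from 1.335 to 1.351 with Vehicle, 1.309 to 1.325 with 27HC and 1.284 to 1.311 with GW3965, again with no overlap with Vehicle. These ranges are descriptions over the members and carry no test.

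Genes around the ribosome moved in part with its proteins. The list of other TOP-type mRNAs holds 16 genes, chiefly elongation and initiation factors. With GW3965, 15 higher and 0 lower (median 0.21) were called, where 23.1% and 21.1% of all genes were, among them the elongation factor subunits Eef1g at 0.43 ± 0.030 (SE, edgeR adjusted p = 1.49e-16) and Eef1b2 at 0.46 ± 0.035 (SE, edgeR adjusted p = 1.52e-15) and the histone chaperone Nap1l1 at 0.56 ± 0.025 (SE, edgeR adjusted p = 1.26e-23). With 27HC there were 13 higher and 1 lower (median 0.12), against 20.3% and 20.0% of all genes. With GSK2033 there were 1 higher and 7 lower (median -0.06), against 18.4% and 17.9%, with Pabpc1, the poly(A)-binding protein, at -0.30 ± 0.023 (SE, edgeR adjusted p = 1.78e-14) and Eif4b at -0.23 ± 0.023 (SE, edgeR adjusted p = 8.44e-12). Of the ribosomal protein genes outside the symbol rule, Rpl36al (0.36 ± 0.039 SE, edgeR adjusted p = 7.34e-11) and Rack1 (0.38 ± 0.043 SE, edgeR adjusted p = 3.79e-10) were higher with GW3965 and Fau was not called (0.14 ± 0.072 SE, edgeR adjusted p = 0.122).

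Ribosome assembly factors followed another order of treatments. Of 31 such genes, which cut, modify and export ribosomal RNA or belong to RNA polymerase I, GW3965 gave 27 higher and 0 lower (median 0.32), where 23.1% and 21.1% of all genes were called. 27HC gave 28 higher and 0 lower (median 0.36) (20.3% and 20.0% of all genes), ICI plus 27HC 30 higher and 0 lower (median 0.53) (26.6% and 26.4% of all genes) and GSK2033 plus 27HC 25 higher and 1 lower (median 0.36) (24.1% and 26.4% of all genes). GSK2033 alone gave 18 higher and 0 lower (median 0.19) (18.4% and 17.9% of all genes) and ICI alone 15 higher and 0 lower (median 0.15) (13.9% and 12.5% of all genes), where the ribosomal protein genes had 3 and 9 members higher. E2 gave 0 higher and 0 lower (median 0.0043) by edgeR (4.70% of all genes in either direction). Between 27HC and GW3965, 4 of the 31 were higher with 27HC and 0 lower (12.8% and 12.5% of all genes), with a median of 0.01. The share called higher was near that of all genes. In that comparison 57 ribosomal protein genes were lower. Gnl3, a GTPase of the nucleolus, was at 0.64 ± 0.064 (SE, edgeR adjusted p = 9.29e-12) with GW3965 and 0.62 ± 0.064 (SE, edgeR adjusted p = 3.36e-11) with 27HC, and Ppan, of large subunit assembly, at 0.61 ± 0.052 (SE, edgeR adjusted p = 1.87e-13) with 27HC. Noc2l was at 0.32 ± 0.026 (SE, edgeR adjusted p = 1.32e-13) with GSK2033 and 0.31 ± 0.028 (SE, edgeR adjusted p = 1.25e-12) for ICI plus 27HC against 27HC. The difference between the lists was not tested.

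Of 19 tested mTORC1 and TOP regulators, GW3965 gave 7 higher and 4 lower (median 0.09) and 27HC 5 higher and 4 lower (median 0.03), where 23.1% and 21.1% of all genes were called with GW3965 and 20.3% and 20.0% with 27HC. The shares of the list called lower were near those of all genes. Myc was at 0.86 ± 0.050 (SE, edgeR adjusted p = 2.24e-19) with GW3965, 0.85 ± 0.050 (SE, edgeR adjusted p = 6.29e-19) with 27HC and 0.45 ± 0.051 (SE, edgeR adjusted p = 1.2e-09) with ICI. Deptor, an inhibitor of mTOR, was at -0.50 ± 0.074 (SE, edgeR adjusted p = 1.69e-07) with GW3965, -0.44 ± 0.073 (SE, edgeR adjusted p = 2.73e-06) with 27HC and -1.07 ± 0.076 (SE, edgeR adjusted p = 7.41e-16) with GSK2033. Mxd1, an opponent of Myc, was at -0.81 ± 0.097 (SE, edgeR adjusted p = 1.15e-09) with GW3965. It was also called lower with E2 (-0.36 ± 0.093 SE, edgeR adjusted p = 0.0114), where 0 ribosomal protein genes were called. Whether any of these regulators bears on the ribosomal protein genes was not tested. With 27HC the 5 higher regulators were Rptor, Larp4, Eif4e, Ddit4 and Myc, and the 4 lower were Deptor, Sesn2, Max and Mxd1. Those named for GW3965 are only some of the regulators called with it. Compared with GW3965, 27HC had 2 regulators higher, Eif4e and Mxd1, where 12.8% of all genes were. Lower were 4 (12.5% of all genes), namely Rheb, Sesn2, Eif4ebp1 (-0.32 ± 0.041 SE, edgeR adjusted p = 2.21e-08) and Eif4ebp2 (-0.21 ± 0.048 SE, edgeR adjusted p = 0.000747). The 78 mitochondrial ribosomal protein genes gave 26 higher and 4 lower (median 0.08) with GW3965, 21 higher and 4 lower (median 0.07) with 27HC and 38 higher and 3 lower (median 0.14) with GSK2033, beside 23.1%, 20.3% and 18.4% of all genes called higher. With GSK2033 the mitochondrial list held more higher calls than the cytosolic one, 38 of 78 against 3 of 80.

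**Figure D5:**
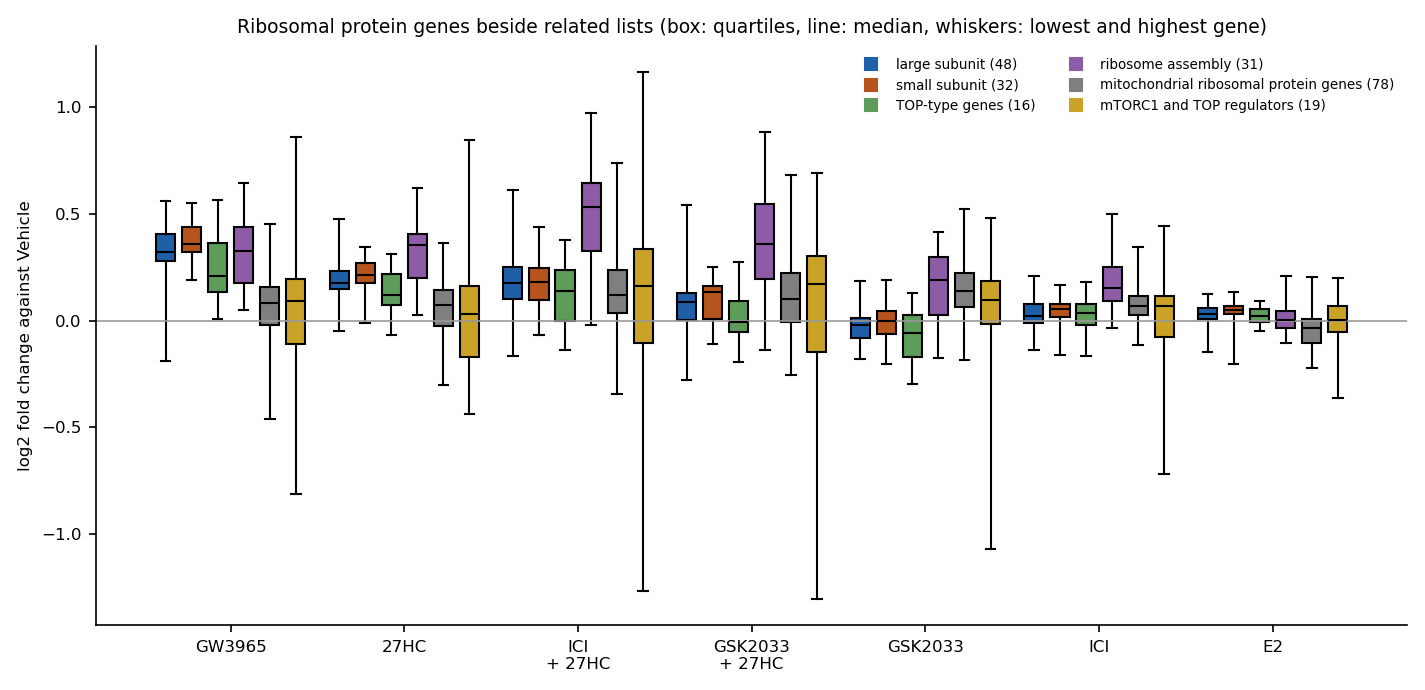
Log2 fold change against Vehicle of large and small subunit genes beside 4 related lists in 7 treatments, as boxes of the quartiles with the median and whiskers to the lowest and highest gene; the numbers in the key are genes. The subunit boxes are highest with GW3965 (medians 0.32 and 0.36), while the ribosome assembly box is highest with ICI plus 27HC (median 0.53) and lies above 0 with GSK2033 (median 0.19).

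Other measures moved across the same groups. The share of counts on mitochondrially encoded transcripts was 1.60 ± 0.103% (SD, n = 6) in Vehicle libraries, 2.17 ± 0.118% (SD, n = 5) with GW3965, 1.90 ± 0.0981% (SD, n = 5) with 27HC and 1.34 ± 0.114% (SD, n = 5) with GSK2033 plus 27HC. With ICI they took 1.98 ± 0.139% (SD, n = 5) and with E2 1.84 ± 0.0991% (SD, n = 5), where 9 and 0 members were higher. With ICI plus 27HC, where 58 were higher, they took 1.66 ± 0.118% (SD, n = 5). The share was 1.37 ± 0.0962% (SD, n = 5) with GSK2033 and 1.80 ± 0.220% (SD, n = 5) when GW3965 was given with its second compound. The 8 macrophage markers summed to 10759.9 to 11222 CPM with GW3965 (2 higher and 6 lower than with Vehicle) and 14874 to 16279.6 with 27HC (1 higher and 6 lower), both below Vehicle. Their sum was 9118 to 9651 with GW3965 plus the second compound (2 and 6), 10631 to 11419.7 with ICI plus 27HC (1 and 7) and 13334 to 15042 with GSK2033 plus 27HC (1 and 7). It was 16574 to 17737 with GSK2033 (1 and 6), 14318 to 15311 with ICI (3 and 5) and 21596 to 23438 with E2 (2 and 1). The 6 stromal markers summed to 3166 to 3823 CPM with GW3965 (0 higher and 5 lower), 3378 to 3827 with 27HC (1 higher and 5 lower) and 4389 to 4939.6 with E2 (0 higher and 1 lower). Their sum was 2811 to 3191 with ICI plus 27HC (0 higher and 6 lower), 2684 to 3292 with GW3965 plus the second compound (0 and 6), 3765 to 4063 with GSK2033 plus 27HC (0 and 5), 3683 to 4547 with GSK2033 (0 and 4) and 3594 to 4177 with ICI (0 and 6). Of all genes, 23.1% were called higher and 21.1% lower with GW3965, 20.3% and 20.0% with 27HC, and 18.4% and 17.9% with GSK2033. With ICI the shares were 13.9% and 12.5%, with ICI plus 27HC 26.6% and 26.4%, and with GSK2033 plus 27HC 24.1% and 26.4%. They were 25.2% and 24.4% with GW3965 plus the second compound, and 4.70% in either direction with E2. None of either marker list was at 0. Members are short, with a median principal transcript of 829.8 nt and 36 of 74 up to 800 nt. The 364 other genes with transcripts up to 800 nt had a median log2 fold change of 0.07 with GW3965, 0.03 with 27HC and 0.08 with GSK2033, where the members had 0.35, 0.19 and -0.02. With scaling factors computed without the ribosomal protein and mitochondrially encoded genes, 77 members were higher with GW3965 and 71 with 27HC. The part of the marker and mitochondrial shifts in these results was not tested.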

How the data were processed

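Polyadenylated RNA of 46 libraries in 9 groups was sequenced. Per the labels' protocols, RNA was extracted with RNeasy Plus columns, libraries were stranded TruSeq, and single reads of 100 nt were run on 3 lanes of a NovaSeq instrument. The submitters' processing notes list bcl2fastq 2.20, kallisto 0.44.0 and GRCm38. The deposited values are estimated counts per gene, which the authors made with kallisto, and how transcripts were summed to genes, or whether lengths were corrected for, is not given in the sources used here. Whole numbers, within 0.02, made up 11.7% of the nonzero values, and rounding changed no library total by more than 133 counts. GENCODE M21 gave symbols for 24279 of 24671 genes, and the others held 0.455% of the counts.

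After filterByExpr, TMM factors and edgeR's quasi-likelihood model (edgeR 4.0.16, R 4.3.3) were fitted to all 46 libraries with a mean per group, which left 37 residual degrees of freedom and gave a biological coefficient of variation of 7.55%. Group differences and interactions were contrasts of those means, adjusted by the Benjamini-Hochberg method over 13838 genes, with 0.05 as the threshold. Levels are TMM-scaled CPM. Pseudogene copies were found with blastn 2.17.0. The test was checked on simulated counts. For 27HC against Vehicle, it recovered 44% of 50 changes of 1.15-fold set into the counts, and 90% of 50 of 1.25-fold. Of the 13695 genes tested there, 12 without a set change were called. A member that was not called may therefore still differ by a small factor. DESeq2 1.42.0, other scalings, no filter, other member minimums, a block on replicate number and leaving out each library were tried as alternatives, and adding pseudogene copies was chosen after seeing the data. Rows without a symbol stayed in the tests.

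The members, the related lists and the rule for named genes were chosen with earlier results of these data known. In each comparison the rule takes up to 8 called members with the highest and 8 with the lowest log2 fold change, 11 fixed members, up to 4 genes with the smallest p of each related list, and members next to the level limit. Other genes named, such as Rps3 and Rpl11, were chosen after their values were seen. Some genes that the rule takes are not reported here.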

Additional observations from a re-analysis of the deposited data

Results flagged for a closer look

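In 3 of 126 groups of values tested, a library lay far from the others of its group, where chance alone gives about 1 in 20. Rplp0 was at 1568 CPM in 27HC replicate 3, against 1442 to 1472 in the other libraries of that group. Rpl22 was at 244 CPM in replicate 3 of GW3965 plus the second compound, against 215 to 222. Rps27l was at 84.1 CPM in ICI plus 27HC replicate 3, against 67.6 to 72.2. These libraries also held the highest summed level of the 80 genes in their groups.

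The effect of 27HC on the log2 scale was lower in the presence of GSK2033 than in its absence, by edgeR's interaction term with adjusted p under 0.05, among others for Rpl27 (-0.50), Rps16 (-0.31), Rpl22l1 (-0.30), Rps6 (-0.24), Rpl28 (-0.23), Rpl39 (-0.22), Rpl15 (-0.21), Rpl6 (-0.18), Rpl8 (-0.18), Rpl18 (-0.18), Rps20 (-0.17), Rpl7 (-0.16), Rps26 (-0.15), Rps4x (-0.14) and Rpsa (-0.14). With pseudogene copies added, the interaction was -0.26 for Rpl27, -0.13 for Rps6 and -0.17 for Rpl28. In the presence of ICI the effect of 27HC was lower for Rpl22l1 (-0.36), Rps16 (-0.21) and Rpl39 (-0.19). The calls of Rps16 and Rpl39 ended under changes of setting or library given above. Of all genes, 10.3% were called lower in the interaction with GSK2033 and 9.97% in that with ICI. The 3 members called with ICI are a smaller share of the 80 than that of all genes.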

How the results depend on the processing

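No called log2 fold change of a named member turned its direction under the alternatives run. The median over the members turned in 2 comparisons: ICI plus 27HC against 27HC, from -0.01 to between -0.04 and 0.01, and GW3965 plus the second compound against GW3965, from -0.0042 to between -0.03 and 0.02. In the first, 11 lower and 1 higher became 2 lower and 4 higher without 27HC replicate 3. With 1 library left out at a time, 2761 of 2955 values of named members kept their direction and their side of the threshold, and under the other alternatives 1696 of 1757 did. The cause of each change given here was not tested. The estimated counts limit precision at low levels, and sharing of reads with pseudogenes limits single members more than sums.

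Leaving out libraries gave ranges of the number of members called. Higher members numbered 63 to 73 with 27HC, 77 to 79 with GW3965, 76 to 79 with GW3965 plus the second compound, 50 to 62 with ICI plus 27HC, 32 to 40 with GSK2033 plus 27HC, 3 to 16 with ICI, 1 to 5 with GSK2033 and 0 to 1 with E2, against Vehicle. Lower members numbered 8 to 13 with GSK2033, 2 to 5 with GSK2033 plus 27HC and 0 to 1 with ICI (1 without ICI replicate 5). For 27HC against GW3965, 40 to 63 were lower and 0 to 1 higher (1 without 27HC replicate 4 or 5 or GW3965 replicate 2 or 3). For GSK2033 plus 27HC, 34 to 50 were lower than with 27HC, and 24 to 41 higher and 1 to 2 lower than with GSK2033 (2 without GSK2033 replicate 1). ICI plus 27HC against 27HC gave 1 to 4 higher and 2 to 18 lower. GW3965 plus the second compound against GW3965 gave 1 to 2 higher (2 without GW3965 replicate 1 or replicate 5 of the combination) and 0 to 1 lower (1 without GW3965 replicate 4 or replicate 3 of the combination). The interaction with GSK2033 gave 0 to 2 higher (2 without GSK2033 plus 27HC replicate 3, and 1 without Vehicle replicate 1 or 3, 27HC replicate 1 or 2 or GSK2033 replicate 5) and 7 to 23 lower, and that with ICI 1 to 9 lower. In the main fit 10.3% and 9.97% of all genes were called lower in these terms.

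Scaled to the library total, ICI gave 5 higher and 1 lower, GSK2033 plus 27HC 54 higher and 2 lower, with a summed level of 31303 CPM, and GSK2033 plus 27HC against GSK2033 55 higher. Under that scaling 1 was higher for 27HC against GW3965, 3 for ICI plus 27HC against 27HC and 4 for GW3965 plus the second compound against GW3965, while the interaction with GSK2033 gave 3 higher and 8 lower and that with ICI 1 higher. Without a filter on low counts, ICI gave 5 higher, GSK2033 plus 27HC 2 lower, 27HC against GW3965 1 higher and the interaction with GSK2033 9 lower. RLE scaling, TMM without ribosomal and mitochondrially encoded genes, and DESeq2 each gave 1 higher, Rpl7l1, for 27HC against GW3965. With a minimum of 100 CPM for members, GSK2033 plus 27HC gave 1 higher against 27HC and 0 lower against GSK2033, and with a minimum of 1 CPM, ICI plus 27HC gave 2 higher against 27HC.

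With pseudogene copies added to their genes, an alternative chosen after seeing the data, GSK2033 plus 27HC gave 2 lower against Vehicle and 0 against GSK2033, and ICI plus 27HC 2 higher against 27HC. Summed levels then were 32303 CPM with GSK2033, 32750 with Vehicle, 33514 with ICI, 33598 with E2, 37915 with 27HC, 41861 with GW3965, 41994 with GW3965 plus the second compound, 37456 with ICI plus 27HC and 34716 with GSK2033 plus 27HC.

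Replicate numbers in the titles were checked for pairing. The deviations of libraries with the same number had a median correlation of 0.0190 (-0.0726 to 0.113, over 0.1 in 7 of 180 pairs), and those with other numbers of -0.00594. The number was kept out of the main model because no label says what it marks. Low correlations of single pairs do not exclude a shared source. Of 45 libraries, 27 were closest to their own number, more than a random match among the numbers 1 to 5 would give. This is a hint from the data, not from the design, that libraries of a number may share a source. With the replicate number as a block, 1 member was lower with E2 than with Vehicle, 1 was higher for 27HC against GW3965 and 2 for ICI plus 27HC against 27HC, and no other count moved by over 1.5 times.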
